A study of Mus musculus with 6 samples.

Results

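The SOX genes examined here are 10 of the 20 family genes listed for the mouse, namely Sox2, Sox4, Sox5, Sox6, Sox8, Sox9, Sox11, Sox12, Sox13 and Sox18. They were found by symbol among 51499 loci in a table of fragment counts, and all 10 were present as loci of their own. The members were chosen with their values in wild-type (WT) and Yme1l-/- cells already known. Their difference between genotypes is therefore given as a description, without p-values, and counts of members past a threshold are read as no more than that. The counts come from poly(A)-selected RNA of mouse embryonic fibroblasts (MEFs), with 3 cultures of each genotype. WT cells carry floxed Yme1l alleles (Yme1l fl/fl), and Yme1l-/- cells are the genotyped knockout of the gene, which encodes a protease anchored in the inner membrane of mitochondria. As the study describes, all cells derive from fibroblasts of floxed animals that were immortalized with SV40 large T antigen and exposed to Cre recombinase, and clones were then sorted by genotype into WT and Yme1l-/-. How many clones stand behind each genotype is not given in the sources used here, so a difference between clones and a difference between genotypes cannot be told apart. The design text of the series calls the replicates independent cultures.

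SOX proteins are transcription factors that bind DNA through an HMG box, a domain that sits in the minor groove and bends the helix. They are grouped by the similarity of that box. SOXB1 proteins such as SOX2 maintain pluripotent cells and neural progenitors, SOXC proteins (SOX4, SOX11 and SOX12) act in neuronal and mesenchymal progenitors, and SOXE proteins (SOX8 and SOX9) act in cartilage, neural crest and testis. SOXD proteins (SOX5, SOX6 and SOX13) lack a transactivation domain of their own and work with partners, as SOX5 and SOX6 do with SOX9 in chondrocytes. SOX18, a SOXF protein, acts in blood and lymphatic endothelium.

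The shared box is visible in the coding sequence. The lines that follow show 27 bases of the GENCODE M21 transcripts at the conserved start of the HMG box, with capitals at each base that differs from Sox2. They are shown to let the relatedness of the groups be read directly.
Sox2: aggcccatgaacgccttcatggtatgg
Sox11: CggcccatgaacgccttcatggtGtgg
Sox4: CggcccatgaacgccttTatggtGtgg
Sox12: CggccGatgaacgcGttcatggtGtgg
Sox8: CggcccatgaaTgccttcatggtGtgg
Sox13: agAcccatgaaTgccttcatggtGtgg
Sox5: CgTccAatgaaTgccttcatggtGtgg
Sox6: CgAccAatgaaTgcGttcatggtTtgg
Between 2 (Sox11) and 6 (Sox6) of the 27 bases differed from Sox2. Over the whole transcripts of the 28 pairs of these 8 genes, the longest identical run was 48 bases, between Sox4 and Sox11. This is shorter than a single read of these libraries. Where in the transcripts the run lies was not examined. Sequences of Sox9 and Sox18 are not shown.

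Promoters of the members at both ends of the comparison are shown next, since Sox2 had no fragment in Yme1l-/- cells and Sox11 was nearly silent in WT. The sequences are from RefSeq (GRCm38.p6), cover the 250 bases before the annotated start, and are written in the direction of transcription. Capitals mark CCAAT, the SOX-type letters ACAAAG and ACAATG, or their reverse complements.
Sox2, chr3:34649745-34649994, plus strand: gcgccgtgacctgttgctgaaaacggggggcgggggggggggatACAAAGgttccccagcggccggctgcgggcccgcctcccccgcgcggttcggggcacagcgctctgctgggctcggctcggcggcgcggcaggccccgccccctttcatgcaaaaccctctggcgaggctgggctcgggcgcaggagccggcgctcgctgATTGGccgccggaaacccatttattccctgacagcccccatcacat
Sox11, chr12:27342719-27342968, minus strand: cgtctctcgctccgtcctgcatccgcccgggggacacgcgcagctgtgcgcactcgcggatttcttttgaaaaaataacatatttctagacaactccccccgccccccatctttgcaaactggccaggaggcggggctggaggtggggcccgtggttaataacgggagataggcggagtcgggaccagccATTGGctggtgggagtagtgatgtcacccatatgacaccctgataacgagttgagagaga
Both windows are rich in CpG, with 27 CpG dinucleotides for Sox2 and 17 for Sox11, against a median of 6 over 32851 promoters of the same length. The same window of Sox12 held 35 and that of Sox13 held 31, so promoters of members that were high, low and little changed in Yme1l-/- cells were all above that median. Sox5 was below it, with 3, at the start that RefSeq lists inside the longer gene of the GENCODE annotation. CCAAT occurred on either strand in the Sox2, Sox4, Sox11 and Sox12 windows, 4 times in that of Sox4, and not in those of Sox5, Sox8 and Sox13. It occurred in 33.8% of all promoters. ACAAAG, present in the Sox2 window, occurred in 16.5% of all promoters and ACAATG, present in the Sox5 window, in 10.7%. RefSeq lists 6 starts for Sox6, whose windows held 1 to 10 CpG. CCAAT occurred in 2 of them, ACAAAG in 5 and ACAATG in 2. These letters are a description and do not mark a bound site.

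The libraries held 33180867 to 49351107 fragments, and Yme1l-/- replicates 2 and 3 were the deepest. The targeted gene, listed as Yme1l1, went from 188.6 ± 5.16 CPM (fragment counts scaled to the effective library size, SD, n = 3) in WT to 39.1 ± 1.34 CPM (SD, n = 3) in Yme1l-/-, with no overlap between the genotypes. Fragments of the gene were thus still counted in Yme1l-/- libraries, at 20.7% of WT, and which of its exons Cre removed is not given in the sources used here. Of 13867 loci with enough counts for a test, 67.7% were called different by edgeR's quasi-likelihood test at an adjusted p under 0.05, and for 71.9% the libraries of the genotypes did not overlap. Against this background 8 of the 10 SOX members passed the count filter. All 8 were past the same threshold and without overlap, 5 lower and 3 higher in Yme1l-/-, where 34.1% and 33.6% of all tested loci were called, and 36% and 35.9% lay without overlap. A difference of at least 2-fold was measured for 4 lower and 2 higher members, against 8.63% and 9.1% of the tested loci (17.7% in either direction). Nothing is read from these counts because the members were chosen on this comparison. Of the 8, Sox2, Sox5, Sox8 and Sox11 passed the filter only through the genotype in which they are high. Sox6 and Sox18 did not pass it. As the RNA is from bulk cultures, fewer cells that express a gene and less RNA per cell cannot be told apart.

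Sox2 (ENSMUSG00000074637, mm10 chromosome 3, 34650405 to 34652461, plus strand) is a gene with 1 exon whose product maintains pluripotent and neural progenitor cells. It had 846, 913 and 660 fragments in WT replicates 1 to 3 and 0 fragments in each of the 3 Yme1l-/- libraries. In WT this corresponded to 24.5 ± 3.93 CPM (SD, n = 3). A count of 0 allows up to 0.0857 CPM in the smallest Yme1l-/- library, so Sox2 was at least 286-fold lower in Yme1l-/- cells. Only 0.663% of the tested loci had no fragment in any Yme1l-/- library. Sox2 lies within the longer noncoding gene Sox2ot on the same strand, which was counted as a locus merged with 3 small genes. That locus had 9, 8 and 5 fragments in WT and 0 in every Yme1l-/- library, too few for a test. The nearest tested loci on each side, Dnajc19 at 569.1 kb on one side and Atp11b at 1103.7 kb on the other (distances between annotated starts), were at 14.4 and 84.6 CPM in WT, with log2 fold changes of 0.69 and -0.17. Apart from Sox2, no locus with a matched start between them passed the count filter. Merged loci and loci without a matched gene position were left out of this search.

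**Figure D1:**
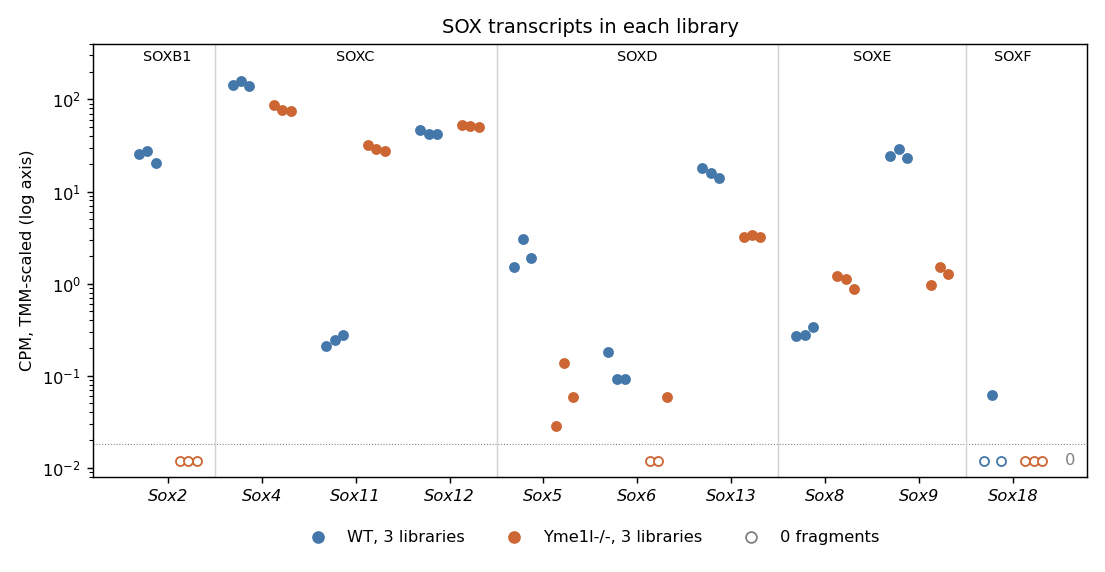
CPM of each SOX member (log axis, open points at the bottom for 0 fragments) in the 3 WT (blue) and 3 Yme1l-/- (orange) libraries, arranged by SOX group. Sox2, Sox4, Sox5, Sox9 and Sox13 sit lower in all Yme1l-/- libraries, Sox11 and Sox8 sit higher, and Sox12 differs least.

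The SOXC genes, which consist of 1 exon each, went in different directions. Sox4 (ENSMUSG00000076431, chromosome 13, 28948919 to 28953713, minus strand), a factor of progenitor survival and of epithelial-mesenchymal plasticity, was the most abundant member. It had 145.2, 159.2 and 140.2 CPM in WT and 87.0, 76.8 and 75.5 CPM in Yme1l-/-. Every Yme1l-/- library was thus below every WT library, with a mean at 53.8% of WT and a log2 fold change of -0.90 ± 0.07 (SE). The 3 nearest tested loci on the higher-coordinate side, Cdkal1, E2f3 and Mboat1, also fell (log2 fold changes -0.49, -0.59 and -0.48), whereas on the other side Gm11361 rose by 0.32 and 2 loci were not called.

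Sox11 (ENSMUSG00000063632, chromosome 12, 27334264 to 27342574, minus strand), a factor of embryonic neurons and mesenchyme that is usually silent in mature tissue, differed in the opposite direction. WT cultures gave 7, 8 and 9 fragments, and Yme1l-/- cultures gave 1113, 1457 and 1413. WT cells averaged 0.244 ± 0.0321 CPM and Yme1l-/- cells 29.5 ± 2.10 CPM (SD, n = 3), 120.9-fold more, and its log2 fold change of 6.90 ± 0.13 (SE) ranked at place 17 from the highest among the tested loci. Chromosome 12 as a whole had a median log2 fold change of -0.44, so that Sox11 was at 7.34 relative to its own chromosome. On its lower-coordinate side lie the interferon-stimulated neighbours Cmpk2 and Rsad2, which rose by 1.97 and 0.82 on the log2 scale, and next to them Rnf144a, which was at -4.76. Distances to these starts were 873.4, 886.1 and 927.3 kb. On the other side Rps7, Rnaseh1 and Adi1 were called lower, at -0.46, -0.62 and -0.22.

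Sox12 (ENSMUSG00000051817, chromosome 2, 152393611 to 152398063, minus strand), the third SOXC gene, was close to even. WT libraries had 47.1, 42.0 and 42.4 CPM, and Yme1l-/- libraries had 52.8, 50.9 and 49.8 CPM. The groups did not overlap, but the log2 fold change was only 0.22 ± 0.06 (SE). The nearest tested loci moved much more and in both directions, with Trib3, a target of the ATF4 stress response 54.0 kb away, at 2.51 and Zcchc3, 17.0 kb away on the other side, at -2.75 on the log2 scale.

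Of the SOXD genes, Sox13 and Sox5 were lower in Yme1l-/- cells and Sox6 was too low to compare by the fit. Sox13 (ENSMUSG00000070643, chromosome 1, 133382303 to 133424377, minus strand), known from gamma-delta T cell differentiation, was the abundant one. It had 18.0, 16.0 and 14.2 CPM in WT and 3.17, 3.41 and 3.24 CPM in Yme1l-/-, a log2 fold change of -2.29 ± 0.11 (SE). The Yme1l-/- cultures were close to each other, with a coefficient of variation of 3.77% against 11.9% in WT. Sox5 (ENSMUSG00000041540, chromosome 6, 143828425 to 144781977, minus strand) had 50, 100 and 62 fragments in WT and 1, 7 and 3 in Yme1l-/-. WT replicate 2 was the high library, and the lowest WT value still lay above every Yme1l-/- value, at a log2 fold change of -4.69 ± 0.44 (SE). The same WT library stood apart for the fibroblast genes Col3a1 (2858, 9860 and 2974 fragments in WT) and Dcn (52, 257 and 51 fragments), and without it the value for Sox5 was -4.36. Without Yme1l-/- replicate 2, which held 7 of the 11 fragments of its genotype, the value was -5.44. What sets WT replicate 2 apart was not tested. Sox6 (ENSMUSG00000051910, chromosome 7, 115470872 to 116038796, minus strand), the usual partner of SOX5 in cartilage, was at the edge of detection, with 6, 3 and 3 fragments in WT and 0, 0 and 3 in Yme1l-/-. Yme1l-/- replicate 3 held as many fragments as WT replicates 2 and 3, but it is a deeper library. Scaled to depth it was at 0.0589 CPM, against 0.0916 and 0.0918 CPM in WT replicates 2 and 3. With so few fragments no fold is given.

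The SOXE genes differed in opposite directions. Sox9 (ENSMUSG00000000567, chromosome 11, 112782224 to 112787760, plus strand), the master factor of cartilage and a determinant of Sertoli cells, had 800, 950 and 762 fragments in WT and 34, 77 and 65 in Yme1l-/-. Mean levels were 25.5 ± 3.07 and 1.26 ± 0.278 CPM (SD, n = 3), so that 4.93% of the WT level was measured in Yme1l-/- cells, a log2 fold change of -4.31 ± 0.15 (SE). Yme1l-/- replicate 1 was the lowest of its group at 0.971 CPM, far under the lowest WT library at 23.3 CPM. Genes around Sox9 lie at a distance. On the higher-coordinate side the nearest tested loci were the long noncoding RNA 2610035D17Rik at 419.6 kb, Cog1 at 866.9 kb and Slc39a11 at 867.9 kb, with log2 fold changes of -0.80, 0.25 and 0.32. On the other side they were Kcnj2 at 1716.1 kb, Map2k6 and Abca5, at -2.63, -1.59 and -1.05. The neighbourhood thus held calls in both directions. Chromosome 11 had a median of 0.36, and Sox9 was at -4.67 relative to it.

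Sox8 (ENSMUSG00000024176, chromosome 17, 25565892 to 25570686, minus strand), which can replace part of SOX9 function in testis and neural crest, was higher in Yme1l-/- cells. It had 9, 9 and 11 fragments in WT and 42, 57 and 45 in Yme1l-/-. All Yme1l-/- libraries were above all WT libraries, with a log2 fold change of 1.84 ± 0.27 (SE). The antisense gene 2810468N07Rik overlaps Sox8 by 329 bases and also rose, by 1.11 on the log2 scale. The library kit keeps strand, but whether strand was used in the counting is not stated, so fragments from the overlap cannot be assigned with certainty. Despite the difference, Sox8 remained a low transcript, at 1.07 ± 0.166 CPM (SD, n = 3) in Yme1l-/-.

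Sox18 (ENSMUSG00000046470, chromosome 2, 181669836 to 181671640, minus strand), the endothelial SOXF factor, had 2 fragments in WT replicate 2 and 0 in the other libraries. No difference could be detected at this depth.

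Levels of different genes were next compared per transcript length, as CPM per kilobase of the longest protein-coding transcript. In WT, Sox4 was highest at 30.9 ± 2.05 CPM per kb (SD, n = 3). Sox2 (11.9 ± 1.91) and Sox12 (9.84 ± 0.643) followed with overlapping libraries, so their order is not resolved. Sox9 (6.17 ± 0.742) and Sox13 (4.36 ± 0.518) came next, without overlap between them. Sox5 was at 0.297 ± 0.111 CPM per kb, and Sox8, Sox11, Sox6 and Sox18 had means under 0.1. The authors' pooled FPKM values, 1 per genotype and without a spread, placed Sox13 (6.31) slightly above Sox9 (6.22), the only change in this order for the 5 highest members.

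In Yme1l-/-, Sox4 was again highest, at 16.6 ± 1.32 CPM per kb (SD, n = 3), and Sox12 followed at 11.5 ± 0.338. Sox11 was next at 3.55 ± 0.252. Sox13 was at 0.886 ± 0.0334. Sox8 (0.357 ± 0.0555) and Sox9 (0.304 ± 0.0672) overlapped, so the order of the SOXE genes, clear in WT, was not resolved in Yme1l-/- cells. All other members were under 0.02 CPM per kb.

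**Figure D2:**
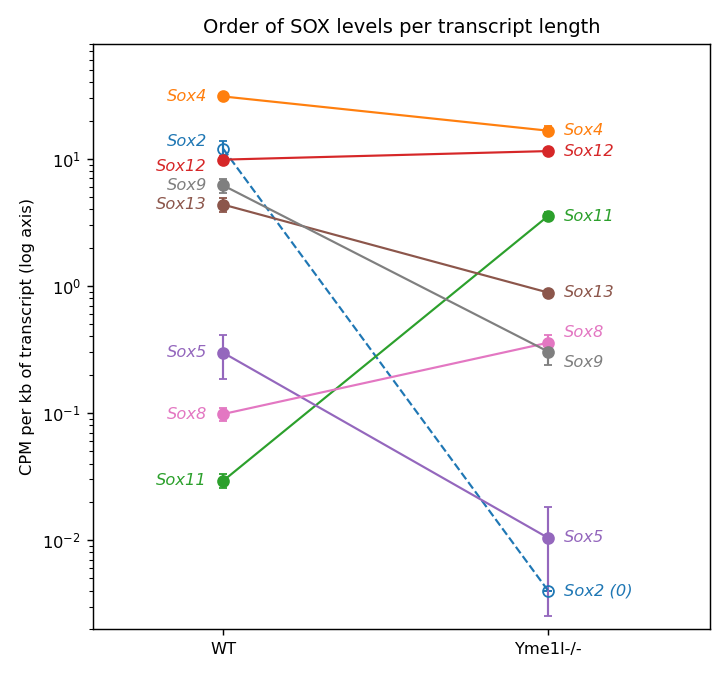
Mean CPM per kb of the longest protein-coding transcript (log axis) in WT and Yme1l-/- for the 8 members that passed the count filter, with SD over 3 libraries. Open points with a dashed line mark Sox2, which had 0 fragments in Yme1l-/- and is drawn there at an arbitrary height near the bottom of the axis. Sox11 moves from the lowest place in WT to place 3 in Yme1l-/-.

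Summed over the 20 family genes, SOX transcripts amounted to 63.8 ± 4.84 CPM per kb in WT and 33.3 ± 1.87 CPM per kb in Yme1l-/- (SD, n = 3). In WT, SOXC genes made up 63.5%, 62.5% and 66.2% of this sum, and in Yme1l-/- 95.6%, 94.3% and 95.3%. SOXB genes took 18.8 ± 1.63% in WT and 0% in Yme1l-/-, SOXE genes 9.81 ± 0.603% and 2.00 ± 0.265%, and SOXD genes 7.32 ± 0.533% and 2.71 ± 0.235% (SD, n = 3). Within SOXC the sum was 40.8 ± 1.93 CPM per kb in WT and 31.7 ± 1.90 in Yme1l-/-, so its larger share went with a lower absolute level. With the authors' pooled FPKM the SOXC share was 60.7% in WT and 93.6% in Yme1l-/-.

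**Figure D3:**
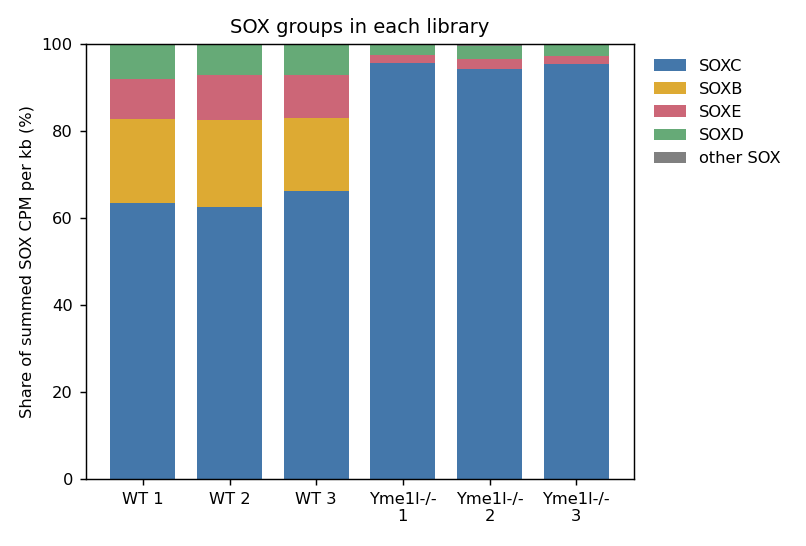
Share of each SOX group in the summed CPM per kb of all SOX genes, for each library (bars add up to 100%). SOXC fills 62.5% to 66.2% of the WT bars and 94.3% to 95.6% of the Yme1l-/- bars, and the SOXB share is 0 in the latter.

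Among the 10 family genes outside the members, 6 had no fragment in any library (Sox1, Sox3, Sox14, Sox17, Sox30 and Sry). Sox7, Sox10 and Sox15 had at most 8 fragments in a library. Sox21, a SOXB2 gene whose product opposes SOXB1 activity in neural progenitors, was the remaining one. It had 10, 13 and 13 fragments in WT and 0 in each Yme1l-/- library, at least 4.27-fold lower. Since it passed the count filter through WT alone, no p is given for it. Sox10, the neural crest and glial factor, had 1 fragment in Yme1l-/- and 0 in WT. Noncoding loci named after Sox1, Sox5 and Sox6 had at most 1 fragment in a library.

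Genes linked to SOX proteins were examined in lists, of which the tested members are counted. The lists hold known targets and partners of SOX proteins, but also markers of the same cell types and related HMG-box factors. The lists were chosen with earlier results of these data known, and the genes named from them were picked by their values. Adjusted p-values given for these genes, here and in the list paragraphs below, are therefore outputs of the fit and no test of the lists. Over all tested loci 33.6% were called higher and 34.1% lower, and the median log2 fold change was -0.00. In the cartilage list of 17 genes, 9 were tested, of which 3 were called higher and 3 lower, with a median log2 fold change of -0.02. Of these 6, Acan and Col11a1 passed the count filter through WT alone and Matn3 through Yme1l-/- alone, so their calls had only 1 possible direction and are given as values without p. Acan, the gene of the proteoglycan aggrecan and a target of SOX9, had 505, 470 and 449 fragments in WT and 0 in all Yme1l-/- libraries. It was at least 168.6-fold lower. Col11a1 had 13, 16 and 11 fragments in WT and 0, 3 and 3 in Yme1l-/-. Col2a1, the collagen that defines cartilage and another SOX9 target, went the other way, from 0.832 ± 0.113 to 1.44 ± 0.114 CPM (SD, n = 3). Its rise was 0.80 ± 0.20 (SE) on the log2 scale, at an edgeR adjusted p of 0.00468. It lies on chromosome 15, whose median was 0.59, and was at 0.21 relative to it. Matn3 had 9, 7 and 3 fragments in WT and 23, 26 and 35 in Yme1l-/-. Col11a2 rose by 0.35 ± 0.09 (SE), or 0.18 relative to its chromosome, and Runx2, the factor of osteoblasts and hypertrophic chondrocytes, fell by 0.38 on the log2 scale. Wwp2, which encodes a ubiquitin ligase and hosts a cartilage microRNA, was at -0.02 ± 0.05 (log2 fold change ± SE) and not called. Col9a1, Epyc and Ucma had no fragment in any library, and Hapln1 and Cnmd at most 2.

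Partners of SOX2 in pluripotent cells were largely absent. Of 12 pluripotency genes, 5 had no fragment in any library, and Pou5f1 had 2 fragments in a single Yme1l-/- library. The tested ones were Klf4, which fell from 16.2 ± 3.31 to 11.9 ± 0.512 CPM (SD, n = 3, edgeR adjusted p 0.00832), and Nanog, which was not called at 0.376 and 0.410 CPM. WT replicate 2 was the high library for Klf4 too, and without it the log2 fold change went from -0.45 to -0.27. WT libraries thus held Sox2 fragments and 0 Pou5f1 fragments.

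In the neuronal and SOXC list, 9 of 10 genes were matched to a locus and 3 were tested. Nes, which encodes the progenitor filament nestin and is a target of SOX2 with POU factors in neural cells, fell from 297.6 ± 7.58 to 91.9 ± 2.75 CPM (SD, n = 3). On the log2 scale this was -1.70 ± 0.04 (SE), at an edgeR adjusted p of 1.0e-10. Map2, a neuronal microtubule protein gene, fell from 24.5 to 7.05 CPM (log2 fold change -1.79 ± 0.11, SE, edgeR adjusted p 1.1e-07). Tead2, which encodes a Hippo pathway factor and is a target of SOXC proteins, rose from 95.4 ± 2.28 to 119.0 ± 6.25 CPM (SD, n = 3), by 0.32 ± 0.05 (SE) on the log2 scale with an edgeR adjusted p of 0.000166. Pax6, a partner of SOX2 in eye and neural tissue, had 8, 10 and 11 fragments in WT and 0 in every Yme1l-/- library, and was not tested under the filter. Dcx, a SOX11 target in young neurons, had 2 fragments in WT and 0 in Yme1l-/-, where Sox11 was at its highest.

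Of 12 vascular genes 5 were tested, with 3 higher and 2 lower. Flt4 (VEGF receptor of lymphatic endothelium) fell from 26.1 ± 2.72 to 2.42 ± 0.0779 CPM, and Efnb2 (ephrin-B2, an arterial ligand also found in fibroblasts) fell from 263.9 ± 7.93 to 14.3 ± 0.379 CPM (SD, n = 3). Their log2 fold changes were -3.43 ± 0.10 and -4.21 ± 0.05 (SE), with edgeR adjusted p-values of 2.4e-10 and 7.1e-13. Vcam1 and Kdr rose by 0.30 and 0.72 on the log2 scale. A locus in which Egfl7 was merged with Fam69b and Gm20532 was called higher at 0.20, a value that does not belong to Egfl7 alone. Without WT replicate 3 the higher calls numbered 1, that of Vcam1. The call of the merged locus was also lost without WT replicate 2 or Yme1l-/- replicate 1, and that of Kdr without Yme1l-/- replicate 2. Of the vascular genes that were not tested, Cldn5, Prox1 and Robo4 had no fragment in any library. Pecam1 had 0, 0 and 1 fragments in WT and 3, 6 and 10 in Yme1l-/-, and Cdh5, Tek and Dll4 had at most 6 in a library. Sox18 itself was at the limit given above.

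TCF/LEF proteins share the HMG box with SOX proteins and act downstream of Wnt. All 4 genes were tested. Lef1 rose from 2.03 ± 0.274 to 3.66 ± 0.149 CPM, Tcf7 from 20.2 ± 2.91 to 28.7 ± 0.988 CPM and Tcf7l1 from 20.3 ± 0.750 to 26.7 ± 1.88 CPM (SD, n = 3), with edgeR adjusted p-values of 0.000309, 0.000388 and 0.000312. Tcf7l2 was called lower at -0.18 ± 0.07 (log2 fold change ± SE), and was no longer called in 4 of 6 fits with a culture left out. Relative to their chromosomes, Tcf7 was at 0.15 and Tcf7l1 at 0.05, whereas Lef1 was at 0.97.

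**Figure D4:**
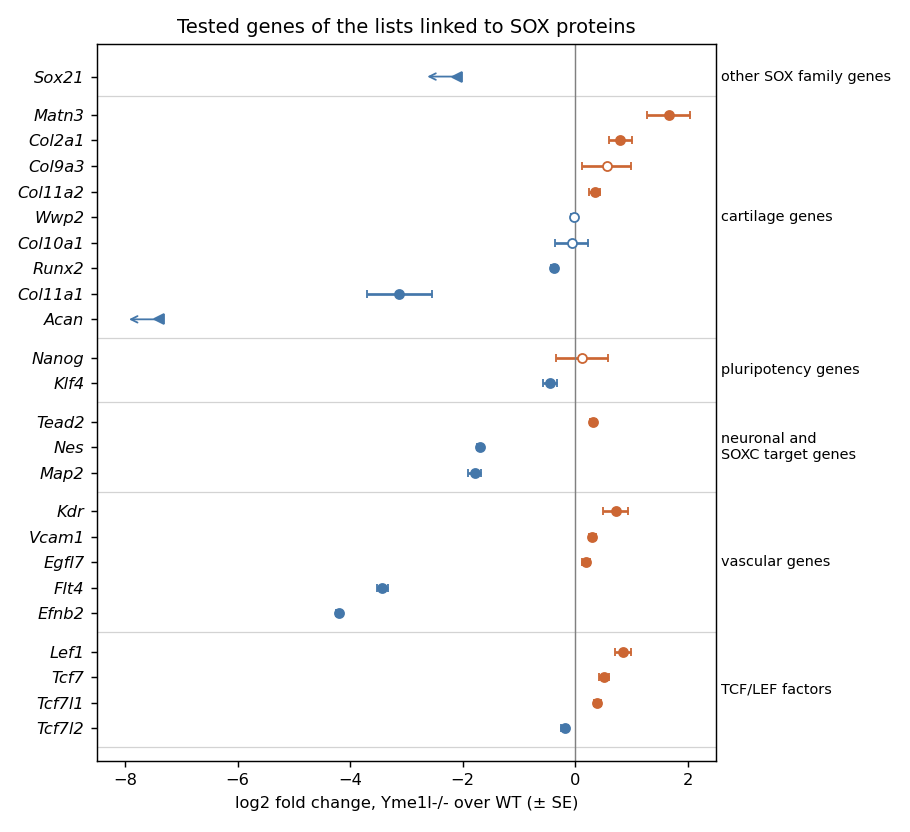
Log2 fold change (Yme1l-/- over WT, bars are SE) of each tested gene in the lists, orange above and blue below 0, filled where the edgeR adjusted p was under 0.05. Triangles with an arrow mark Sox21 and Acan, which had 0 fragments in Yme1l-/- and are drawn at their bound. Among the fitted values Efnb2 (-4.21), Flt4 (-3.43) and Col11a1 (-3.12) lie furthest below 0, and the bounds of Sox21 and Acan are not ranked with them.

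The loci next to each SOX gene were compared as a group, 3 tested loci on each side. Merged loci and loci without a matched gene position were left out. Calls in both directions occurred around each of the 10 members, as also among all tested loci, of which 33.6% were called higher and 34.1% lower. Around Sox2, 4 of the 6 were not called and the range was -0.17 to 1.03 (log2 fold change). Around Sox5 the range was -0.36 to 0.98, and around Sox4 -0.59 to 0.61. Wider ranges were measured around Sox6 (-4.99 to 0.12, the lowest being Pde3b), Sox11 (-4.76 to 1.97), Sox8 (-3.02 to 3.03) and Sox12 (-2.75 to 2.51). In none of these neighbourhoods was a locus as far from 0 as Sox2 or Sox11 itself.

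**Figure D5:**
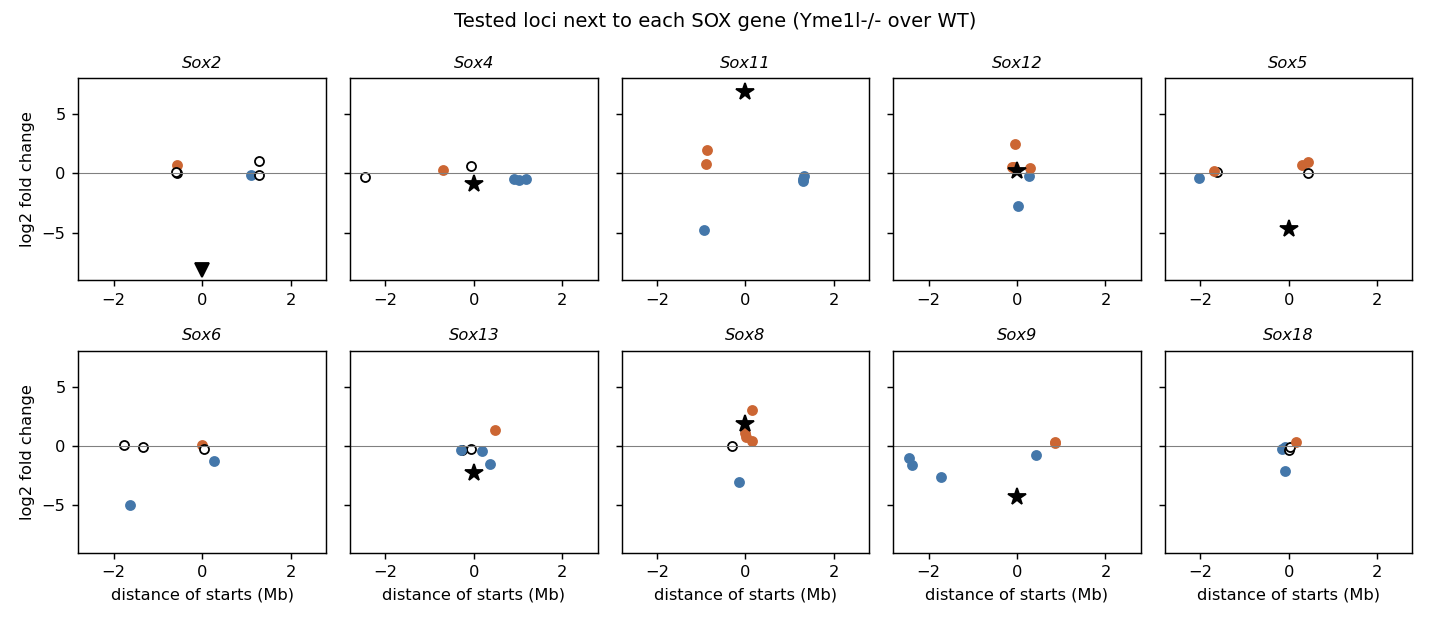
Log2 fold change (Yme1l-/- over WT) of the 3 nearest tested loci with a matched position on each side of each SOX gene, against the distance between annotated starts in Mb. Orange and blue points were called higher and lower, open points were not called. A star marks the SOX gene and a triangle the bound for Sox2, and Sox6 and Sox18 have no value. Sox8 and Sox12 lie within the range of their neighbours and the other 6 tested members outside it.

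The loci with the most similar profile, by the smallest distance over the log2 CPM values of the 6 libraries, were Pdgfd and Ripk4 for Sox2, with 27.4 and 21.3 CPM in WT and 0.00661 CPM in Yme1l-/-. Nearest to Sox11 were Gpc6 (0.305 and 32.3 CPM in WT and Yme1l-/-) and Hoxc13 (0.172 and 27.3 CPM). For Sox9 they were Gm44275 and Rps6ka6, and for Sox13 A930004D18Rik and Plxna2. With 6 libraries such likeness mainly reflects the level in each genotype.

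Markers of other cell types were examined for the same libraries. Of 8 epithelial markers 3 were tested and were lower in Yme1l-/-, where 34.1% of all tested loci were called lower. Krt18 and Epcam passed the count filter through WT alone, so only a lower call was possible for them. Krt19 went from 115.3 ± 9.02 to 2.66 ± 0.320 CPM, Krt18 from 31.9 ± 1.12 to 0.0262 ± 0.0299 CPM and Epcam from 1.29 ± 0.219 to 0.0848 ± 0.0240 CPM (SD, n = 3). The summed level of the list was 142.2 to 159.3 CPM in WT and 2.83 to 3.71 CPM in Yme1l-/-. The means of Cdh1 and Krt8 were under 0.3 CPM in both genotypes. The part of this difference in those of Sox2, Sox9 and Sox4 was not tested. Neural crest and glial markers summed to 12.9 to 15.2 CPM in WT and 8.20 to 10.01 CPM in Yme1l-/-, mostly Erbb3, with Foxd3 at 0. Endothelial markers summed to 1.22 to 1.59 CPM in WT and 1.82 to 2.26 CPM in Yme1l-/-, with Emcn, Cldn5 and Tie1 at 0. Haematopoietic markers summed to 1.86 to 2.08 and 4.06 to 4.71 CPM, mostly Cd68, with Adgre1, Cd3e and Hbb-bs at 0. Skeletal muscle markers summed to 0.520 to 0.604 and 2.31 to 3.26 CPM, mostly Des, with Myog and Myf5 at 0. Chondrocyte markers summed to 20.8 to 22.3 CPM in WT and 8.97 to 9.61 CPM in Yme1l-/-, of which Acan gave 14.4 CPM in WT and 0 in Yme1l-/-. The other 2 tested chondrocyte markers, Col2a1 and Col11a2, rose. Fibroblast markers were abundant in both genotypes, at 10957 to 11515 CPM in WT and 6720 to 7203 CPM in Yme1l-/-, although 7 of 9 tested were called lower (34.1% of all tested loci were). Among the 7, S100a4 was counted in a locus merged with S100a3 and Gm42674, so that value does not belong to S100a4 alone. Col1a1 was called higher, from 1615 to 2176 CPM, and Thy1 was under 0.2 CPM throughout.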

How the data were processed

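Poly(A) RNA of 3 WT and 3 Yme1l-/- MEF cultures was sequenced from stranded libraries. Reads were mapped by the authors to mm10 (GRCm38) with HISAT2 2.0.4, and transcripts were assembled with StringTie 1.3.3. The deposited counts are raw fragment counts per assembled locus. The tool that counted, and its use of strand, are not given in the sources used here. FPKM values deposited by the authors (Cuffdiff 2.2.1) are a single value per genotype. The same table holds the fold changes and p-values of the authors' test, which were not used.

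The fits used edgeR 4.0.16 under R 4.3.3. Loci were kept with filterByExpr (minimum count 10) and scaled with TMM factors. Genotypes were compared with the two-sided quasi-likelihood test (robust, no covariates) and Benjamini-Hochberg adjustment over all 13867 tested loci. The procedure was first run on simulated data with far fewer changed loci than were called here, so no support is drawn from that run. A gene with 0 fragments in a genotype was given a bound from 3 counts in its smallest library. Such bounds cover counting error only. Each SE is the log2 fold change over the root of the F statistic. Relative values subtract the median of the tested loci on the chromosome. Gene positions and transcript lengths are from GENCODE M21 and promoters from RefSeq, both on GRCm38. Promoter entries were matched for 8 of the 10 members.

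The SOX members and all gene lists were chosen with earlier results of these data known. Apart from the members and Yme1l1, up to 4 genes per list were named, those with the largest change among calls with at least 1 CPM in the higher genotype and no overlap. Other list genes (Col11a1, Wwp2, Egfl7, Nanog and those near 0) and the loci next to SOX genes were named after their values were seen. No pair of replicates agreed within sampling noise. Alternatives were RLE or upper-quartile scaling, DESeq2 1.42.0 (Wald test), other count filters, a block for the replicate number, and fits without each single culture.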

Additional observations from a re-analysis of the deposited data

How the results depend on the processing

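The number of calls over all loci ranged from 8528 to 10051 over 12 alternatives. No log2 fold change of the 24 SOX and list genes followed changed sign under an alternative. Of 283 refits 276 kept their side of the threshold, and the call was lost in 5 for Tcf7l2 and 2 for Kdr. Subtracting the chromosome median, which has no test, moved 13 of 24 values by more than the replicate spread. With at least 10 counts required in every sample, only 4 SOX members could be tested, 1 higher and 3 lower, as Sox2, Sox5, Sox8 and Sox11 fall below that count in a genotype. The lower calls then numbered 0 for the other SOX genes and 1 for the cartilage list, because fewer genes were tested. Without a filter beyond 1 count, 4 neuronal and SOXC genes were called lower in place of 2. Leaving out each culture in turn gave 1 to 3 higher calls for the vascular list (1 without WT replicate 3), 2 to 3 lower calls for the neuronal list and 0 to 1 lower calls for TCF/LEF. The call of Tcf7l2 (-0.18) was lost under upper-quartile scaling (-0.13), so that 0 TCF/LEF genes were called lower there. It was also lost without WT replicate 2 or 3 or Yme1l-/- replicate 1 or 3. Upper-quartile scaling moved the median of all loci to 0.06 and the share of calls that were higher from 49.6% to 55.1%. Replicate numbers did not pair the samples, since deviations of same-numbered cultures correlated at 0.14, -0.09 and 0.05. A fit that held the replicate number as a block called 9794 loci, and the counts of SOX members called stayed at 3 higher and 5 lower.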
